A study of Mus musculus with 6 samples.

Results

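Cytosolic ribosomal protein genes encode the proteins of the large (60S) and small (40S) subunits of the ribosome that translates cytoplasmic mRNA. They were taken from the array annotation as gene symbols made of Rpl or Rps and a digit, together with Rplp0, Rplp1, Rplp2 and Rpsa, without the S6 kinase genes and without pseudogenes. A probe set counted only if the annotation gave it exactly 1 gene symbol, and each gene was represented by its probe set with the highest mean over the 6 arrays. Of 63 such genes, Rpl3l, Rpl10l and Rpl39l stood at the floor of 5 (log2 RMA signal, the lowest value in the table) on all arrays, which left 60 genes of the 10347 genes with 1 symbol above the floor. Among the 60 genes, 30 encode proteins of the 60S body, 3 the P stalk of the 60S subunit and 21 the 40S subunit, so that 54 are standard subunits. Another 4 carry names of ribosomal proteins with an added l (Rps27l, Rps4l, Rpl7l1 and Rpl32l), and 2 match the rule by name but encode no standard subunit: Rps19bp1, whose product binds the Rps19 protein, and Rps23rg1, a retroposed copy of Rps23.

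Livers of 3 TLR3-/- mice, which carry a disrupted gene for the endosomal double-stranded RNA receptor TLR3, were compared with livers of 3 TLR3wt mice. All mice were C57Bl/6 by the series design, 3 months old, untreated and bred by the submitters under specific-pathogen-free conditions. Total liver RNA of each mouse was hybridised to 1 oligonucleotide array. The labels give neither sex, nor the construction of the mutant allele, nor the breeding relation between the mutant and wild-type lines, so genotype and line cannot be told apart.

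The arrays were alike in the number of probe sets above the floor (15081 to 15226) and in the median signal of the 16639 tested probe sets (6.54 to 6.59). The Tlr3 probe set stood at 5 on every array of both groups and so gave no check of the genotype. All 17 measured hepatocyte markers and 0 of 12 neutrophil markers were above the floor. Of the hepatocyte markers 12 were lower in TLR3-/- livers (median log2 difference -0.06, 0 called by limma, 5 or 29.4% at an unadjusted p under 0.05). The groups were apart in 41.2% of them. Of 19 measured macrophage and Kupffer cell markers, 18 were lower in TLR3-/- livers (median log2 difference -0.78, 0 called by limma, 16 or 84.2% at an unadjusted p under 0.05). The groups were apart in 84.2% of these, all lower in TLR3-/- livers. Of all tested probe sets, 14.5% had an unadjusted p under 0.05 and 20.1% had groups apart. The part of the macrophage markers in the results below was not tested. In whole-liver RNA, fewer cells of a type and less RNA per cell cannot be told apart.

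Ribosomal protein genes are transcribed at high rates in every growing or secreting cell, and their products are needed in equal numbers because each ribosome holds 1 copy of nearly every protein (the P-stalk proteins P1 and P2 are the exception). In vertebrates their mRNAs start with a 5′ terminal oligopyrimidine (TOP) motif, a C at the first base followed by an unbroken run of pyrimidines. The RNA-binding protein LARP1 holds TOP mRNAs back when the kinase complex mTORC1 is inactive, so these mRNAs are controlled together, largely at translation rather than at their level. In the liver, an organ that secretes most plasma proteins, ribosomes make up a large share of the RNA. Ribosomal protein genes have many processed pseudogenes of nearly the same sequence, and probes of this array cannot be assumed to tell a gene from its copies.

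The TOP motif is a feature that the choice of genes did not use, and a minority of their annotated start sites carry it. RefSeq promoter sequences (GRCm38.p6) were found for 48 of the 60 genes, with 56 start sites in all. A C at the annotated first base followed by at least 4 pyrimidines, read only on the strand with the sequence of the mRNA, stood at 10 of these 56 start sites (17.9%). The share was 2.51% of all 32851 promoters in the RefSeq table. With the C allowed within 5 bases on either side of the annotated start, the shares were 37.5% and 18.3%. The 10 start sites are printed because they show what a TOP start looks like in the genes where it was found: each line holds 30 bases, 10 before the annotated start and 20 from it on, with the pyrimidine run that begins at the start in capitals.
Rps6 (chr4:86857348-86857377, minus strand): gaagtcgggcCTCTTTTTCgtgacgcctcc
Rps10 (chr17:27635225-27635254, minus strand): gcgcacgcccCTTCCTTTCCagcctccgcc
Rps15a (chr7:118116128-118116157, minus strand): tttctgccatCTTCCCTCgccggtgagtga
Rps18 (chr17:33955646-33955675, minus strand): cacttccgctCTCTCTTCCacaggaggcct
Rps21 (chr2:180257369-180257398, plus strand): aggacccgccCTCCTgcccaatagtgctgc
Rpl14 (chr9:120571507-120571536, plus strand): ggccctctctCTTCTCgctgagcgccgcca
Rpl28 (chr7:4792955-4792984, plus strand): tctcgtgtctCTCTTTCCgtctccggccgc
Rpl38 (chr11:114668570-114668599, plus strand): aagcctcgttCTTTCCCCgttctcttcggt
Rplp2 (chr7:141447641-141447670, plus strand): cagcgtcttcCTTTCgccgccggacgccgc
Rpl32l (chr10:20208429-20208458, plus strand): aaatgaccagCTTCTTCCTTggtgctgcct
The runs were 5 bases (Rps21, Rplp2) to 10 bases long (Rps10, Rpl32l). Annotated starts are often some bases away from the main start, so a start site without the motif in this reading says nothing about the mRNA. The core of ETS family binding sites, CCGGAA on either strand, was found in 46.4% of the 56 promoters of 300 bases (250 before and 50 after the start), against 14.9% of all promoters.

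With 3 mice a group, limma detected no difference between TLR3-/- and TLR3wt livers in any of the 60 cytosolic ribosomal protein genes. Of the 60 genes, 0 passed limma's adjusted p of 0.05, against 0.186% of all tested probe sets (31 of 16639, with 0.138% called higher and 0.0481% called lower), and 0 had an unadjusted limma p under 0.05, against 14.5% of all tested probe sets. An ordinary pooled-variance test without moderation also gave 0 at either threshold. The smallest adjusted p was 0.448 (Rps19, limma). The groups were apart, with all 3 livers of one group above all 3 of the other, in 1 gene (1.67%, Rps27l, higher in TLR3-/- livers), against 20.1% of all tested probe sets (13.0% higher and 7.04% lower) and 22.3% of the brighter part of them, those with a mean above the median. Without TLR3-/- mouse 1 the groups were apart in 12 of the 60 genes (20%), against 29.6% of all probe sets above the floor on these 5 arrays. Without any other single mouse they were apart in 1 to 5 genes, the 5 without TLR3wt mouse 1 (8.33% against 33.2%) or without TLR3wt mouse 2 (8.33% against 26.8%).

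The differences were small in both directions. The log2 difference, TLR3-/- minus TLR3wt, ranged from -0.21 (Rps19) to 0.18 (Rpl14), its median was 0.0028 (a median of 0.028 over all tested probe sets), and 32 genes were higher and 28 lower. With each array centred on its median, 20 of the 60 were higher, and with quantile normalisation repeated, 21. Single mice also turned the balance: 14 were higher without TLR3-/- mouse 1 (median -0.060) and 23 without TLR3wt mouse 2 (median -0.026), against 42 without TLR3wt mouse 3 (median 0.026). An absolute difference above 0.25 was found in 0 of the 60 genes and in 14.5% of all tested probe sets. The median absolute difference was 0.049 for these genes and 0.094 for all tested probe sets. The spread within groups was close to that of other probe sets, with a median within-group SD of 0.103 against 0.112.

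**Figure D1:**
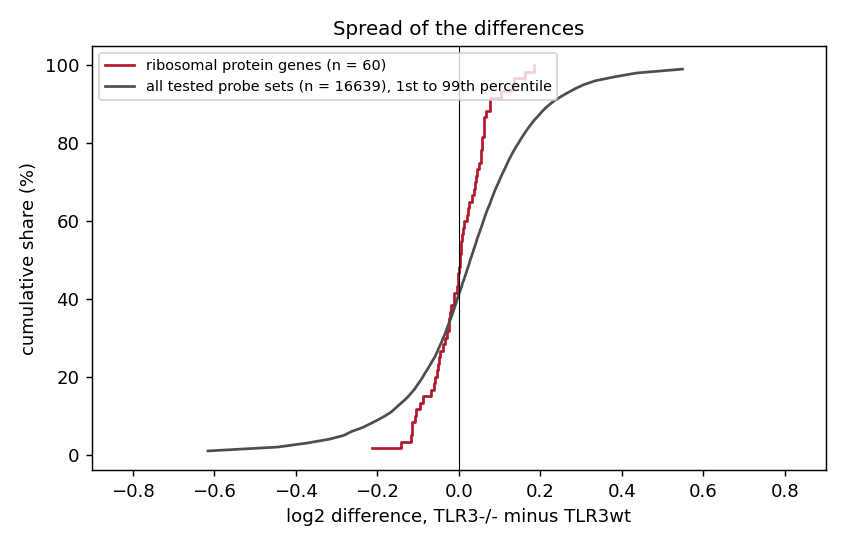
Cumulative share (%) of log2 differences, TLR3-/- minus TLR3wt, for the 60 ribosomal protein genes (red steps) and for all 16639 tested probe sets from their 1st to their 99th percentile (grey line). The red steps lie between -0.21 and 0.18, while the grey line runs from -0.62 to 0.55.

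The 95% intervals of the differences (limma, not adjusted for the number of genes) show what size of change these 6 mice leave possible. All 60 intervals held 0. In 58 genes (96.7%) the interval lay wholly between -0.5 and 0.5 on the log2 scale, which was so for 79.5% of all tested probe sets, and in 28 genes it lay between -0.25 and 0.25. The 2 exceptions to the wider limits were Rpl14 (-0.15 to 0.52) and Rps23rg1 (-0.62 to 0.94). These intervals do not set the limit of the adjusted test, which needs larger differences with 3 mice a group. Of all tested probe sets 14.5% had an unadjusted limma p under 0.05, yet 0.186% were called.

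**Figure D2:**
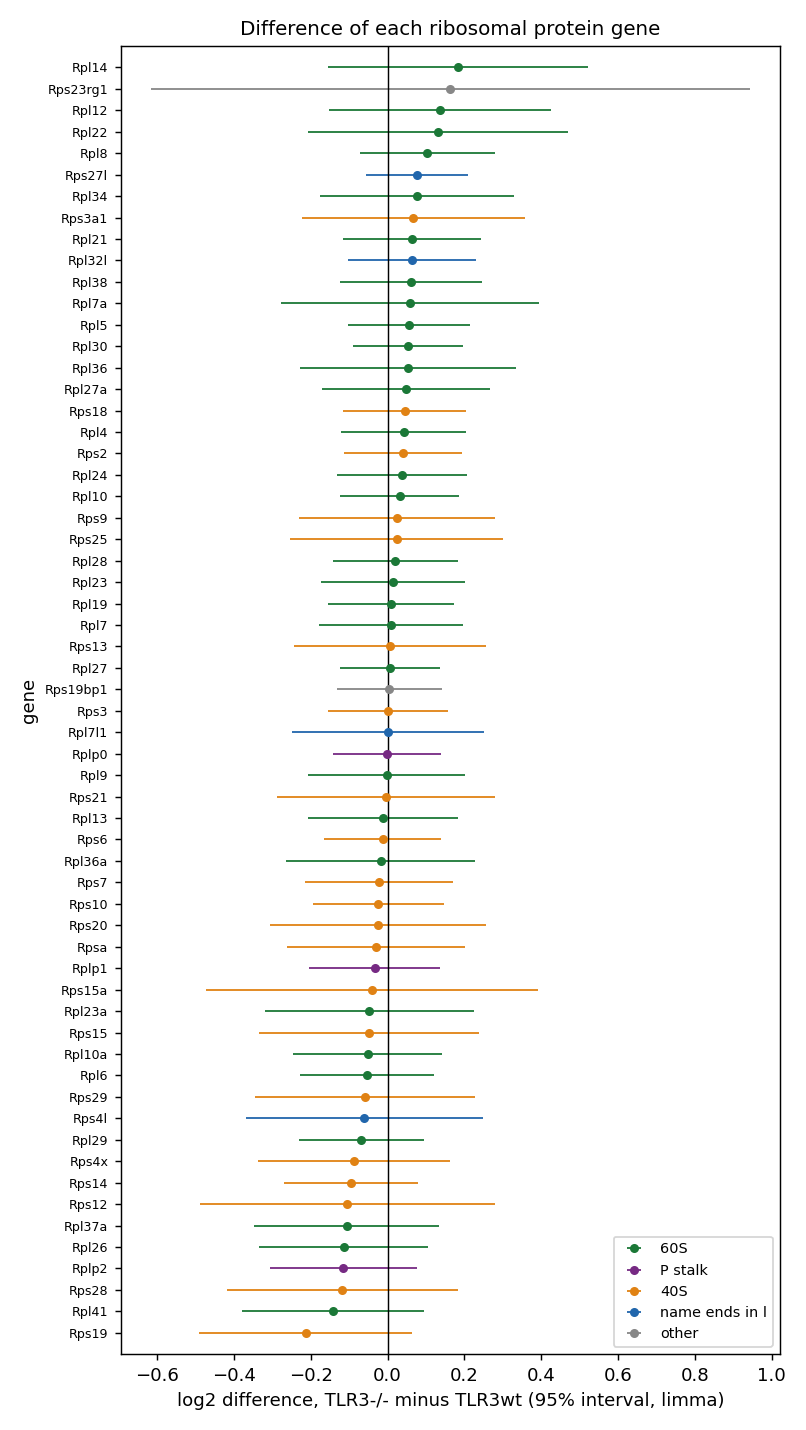
Log2 difference, TLR3-/- minus TLR3wt, of each of the 60 genes with its 95% interval from limma, ordered by size and coloured by class. Every interval crosses 0, and that of Rps23rg1 (-0.62 to 0.94) is the widest.

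Among 40S genes, Rps19 had the lowest difference. Its protein is needed for the maturation of the 40S subunit, and in humans its loss of 1 copy causes Diamond-Blackfan anaemia. Rps19 (probe set 10551021) had 6.86, 6.49 and 6.69 in the TLR3-/- livers and 6.77, 7.02 and 6.90 in the TLR3wt livers (log2 signal). TLR3-/- mouse 1 lay above TLR3wt mouse 1, so the groups overlapped. The difference was -0.21 (95% interval -0.49 to 0.06, limma adjusted p = 0.448), a level 1.16-fold lower that did not pass.

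Other 40S genes with lower means did not pass either. Rps28 had 8.28, 8.07 and 7.89 in TLR3-/- and 8.16, 8.06 and 8.36 in TLR3wt livers. Rps12, with the most probe sets of any member (14), had 9.49, 9.24 and 9.001 against 9.35, 9.14 and 9.56. In both genes the 3 TLR3-/- values spanned more than the difference of the means (-0.12 and -0.10). Rps14, lost from 1 chromosome copy in the human 5q- syndrome, had 9.85, 9.75 and 9.72 in TLR3-/- and 9.95, 9.77 and 9.89 in TLR3wt livers (difference -0.10, limma adjusted p = 0.599).

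Rps6 encodes the subunit protein phosphorylated by S6 kinases below mTORC1. Its values were 11.18, 11.07 and 11.08 in TLR3-/- and 11.19, 11.06 and 11.12 in TLR3wt livers, a difference of -0.012 (95% interval -0.16 to 0.14). Rps3, which lines the mRNA entry channel, had 9.29, 9.22 and 9.34 against 9.23, 9.24 and 9.36 (difference 0.0018). Rpsa, the 40S protein also known as a laminin receptor, had 10.07, 9.89 and 9.96 in TLR3-/- and 9.91, 9.91 and 10.18 in TLR3wt livers. The group ranges overlapped in all 3 of these genes. Rps2 was at 11.39 ± 0.03 and 11.35 ± 0.09, and Rps3a1 at 7.81 ± 0.12 and 7.74 ± 0.20, in TLR3-/- and TLR3wt livers (SD, n = 3 each).

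The 60S gene with the highest difference was Rpl14, which did not pass. It had 6.49, 6.42 and 6.23 in TLR3-/- and 6.48, 6.11 and 6.01 in TLR3wt livers, so that TLR3wt mouse 1 lay within the TLR3-/- range (difference 0.18, limma adjusted p = 0.604). Rpl22, an RNA-binding 60S protein needed for T-cell development in mice, had 7.77, 7.29 and 7.43 against 7.51, 7.22 and 7.37 (difference 0.13, or -0.0031 without TLR3-/- mouse 1). Rpl8, a core 60S protein, had 10.13, 9.95 and 9.97 against 9.98, 9.85 and 9.91 (difference 0.10, limma adjusted p = 0.567). In Rpl22 and Rpl8 alike the highest of the 6 values belonged to TLR3-/- mouse 1.

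The lowest 60S difference was that of Rpl41, which encodes a very short basic peptide of the ribosome. Rpl41 had 10.02, 9.76 and 9.76 in TLR3-/- and 9.96, 9.89 and 10.11 in TLR3wt livers (difference -0.14, limma adjusted p = 0.563). Rpl26 and Rpl37a had differences of -0.11 each, and Rpl34 one of 0.08. Rpl5, which binds 5S rRNA and, when free of ribosomes, the p53 regulator Mdm2, had 10.40, 10.30 and 10.26 in TLR3-/- and 10.32, 10.19 and 10.27 in TLR3wt livers, a difference of 0.06 (95% interval -0.10 to 0.22).

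**Figure D3:**
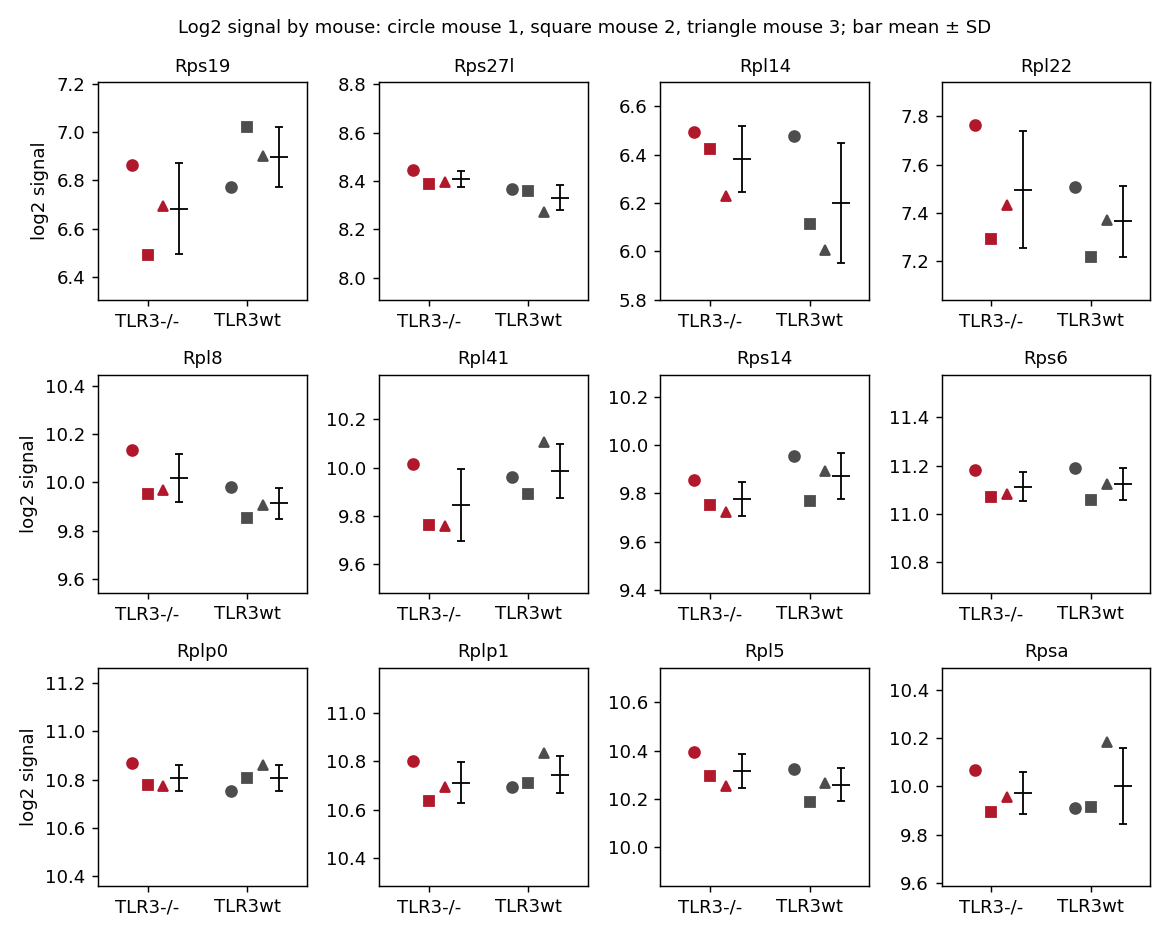
Log2 signal of 12 ribosomal protein genes in each liver, with TLR3-/- mice (red) to the left of TLR3wt mice (grey), a symbol for each mouse number and the mean ± SD beside each group (n = 3). Every panel spans the same log2 range, and the groups lie apart only for Rps27l.

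None of the 3 genes of the P stalk, the protrusion that recruits translation factors to the 60S subunit, passed the test. Rplp0, the base of the stalk, had 10.87, 10.78 and 10.77 in TLR3-/- and 10.75, 10.81 and 10.86 in TLR3wt livers (difference -0.0014, 95% interval -0.14 to 0.14). Rplp1 had 10.80, 10.64 and 10.70 against 10.69, 10.71 and 10.83 (difference -0.03). The Rplp2 probe set was near the floor, with 5.06 on the array of TLR3-/- mouse 1, 5.27 and 5.14 on those of TLR3wt mice 1 and 3, and 5 on the others.

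Other probe sets near the floor carry little information on their genes. Rpl12, at the base of the stalk, was above the floor on 1 array, that of TLR3-/- mouse 3 (5.41), and at 5 on all 3 TLR3wt arrays (limma adjusted p = 0.658), and no fold is given because TLR3-/- mice 1 and 2 stood at the floor as well. Rpl32l was likewise above the floor on that array alone (5.19). Rps23rg1 had 6.22, 5 and 5.39 in TLR3-/- and 5.52, 5.55 and 5.05 in TLR3wt livers, the widest spread of all 60 genes.

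Rps27l was the 1 gene whose groups lay apart. It encodes a paralogue of Rps27 that is induced by p53 in human cells. Rps27l (probe set 10586604) had 8.45, 8.39 and 8.39 in TLR3-/- and 8.37, 8.36 and 8.27 in TLR3wt livers. The lowest TLR3-/- value exceeded the highest TLR3wt value by a small margin, and the difference of 0.08 (95% interval -0.06 to 0.21) did not pass (limma adjusted p = 0.573). With the arrays centred on their medians its groups overlapped.

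Among the other genes with related names 0 passed. Rpl7l1 had 8.28, 8.49 and 8.56 in TLR3-/- and 8.53, 8.51 and 8.29 in TLR3wt livers, and the subunit gene Rpl7 had 9.63, 9.44 and 9.41 against 9.54, 9.42 and 9.50. TLR3-/- mouse 1 was thus the lowest of the 6 for Rpl7l1 and the highest for Rpl7. The X-linked Rps4x had 9.58, 9.29 and 9.31 against 9.56, 9.35 and 9.54, and Rps4l 6.39, 6.33 and 6.22 against 6.55, 6.10 and 6.47. Names that differ by an added a belong to different proteins of the ribosome and not to paralogues: Rpl7a, Rpl10 and Rpl10a, Rpl23 and Rpl23a, Rpl27 and Rpl27a, Rpl36 and Rpl36a, and Rps15 and Rps15a had differences between -0.05 (Rpl10a) and 0.06 (Rpl7a).

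The genes of the 2 subunits differed in their balance of signs on the deposited scale. Of the 30 genes of the 60S body 20 (66.7%) were higher and 10 lower in TLR3-/- livers (median difference 0.026). Of the 21 genes of the 40S subunit 7 (33.3%) were higher and 14 lower (median -0.024), with 0 called in either. Of all tested probe sets 58.8% were higher (median 0.028), and of the brighter part 65.0% (median 0.045), so the 60S share was near the background. The balance of signs depended on single mice, and the size of the contrast between 60S and 40S genes on TLR3wt mouse 3. The 60S median lay above the 40S median with each mouse left out in turn, and this contrast was not tested. The mean deviation of the 60S genes from their own means minus that of the 40S genes was 0.021, 0.0075 and 0.049 in TLR3-/- mice 1 to 3, against 0.0098, 0.016 and -0.10 in TLR3wt mice 1 to 3 (log2). Without TLR3wt mouse 3, 21 of 30 genes of the 60S body and 15 of 21 genes of the 40S subunit were higher (medians 0.035 and 0.029). Without TLR3-/- mouse 3, 23 of 29 genes of the 60S body (Rpl12 stood at the floor there) and 13 of 21 of the 40S subunit were higher. Without TLR3-/- mouse 1, the counts were 7 of 30 of the 60S body and 3 of 21 of the 40S subunit. Without TLR3wt mouse 2, they were 18 of 30 and 0 of 21. After centring, 14 of 30 and 3 of 21 were higher.

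The ribosomal protein genes varied together from mouse to mouse. TLR3-/- mouse 1 was above both other TLR3-/- mice in 53 of the 60 genes (88.3%), against 35.8% of all tested probe sets and 41.4% of the brighter part. It was the highest of all 6 mice in 34 genes (56.7%), against 23.0% of all tested probe sets and 28.5% of the brighter part of them. TLR3wt mouse 2 was below both other TLR3wt mice in 40 of the 60 genes (66.7%), against 29.7% of all tested probe sets and 33.0% of the brighter part. The mean deviation of the 60 genes was 0.12, -0.06 and -0.06 in TLR3-/- mice 1 to 3, against 0.03, -0.07 and 0.04 in TLR3wt mice 1 to 3 (log2). The median range among the 3 TLR3-/- mice was 0.207 for these genes, against 0.187 for all tested probe sets and 0.182 for the brighter part. In 58 of the 60 (96.7%) this range exceeded the difference between the genotypes, against 71.5% of all tested probe sets and 73.1% of the brighter part.

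**Figure D4:**
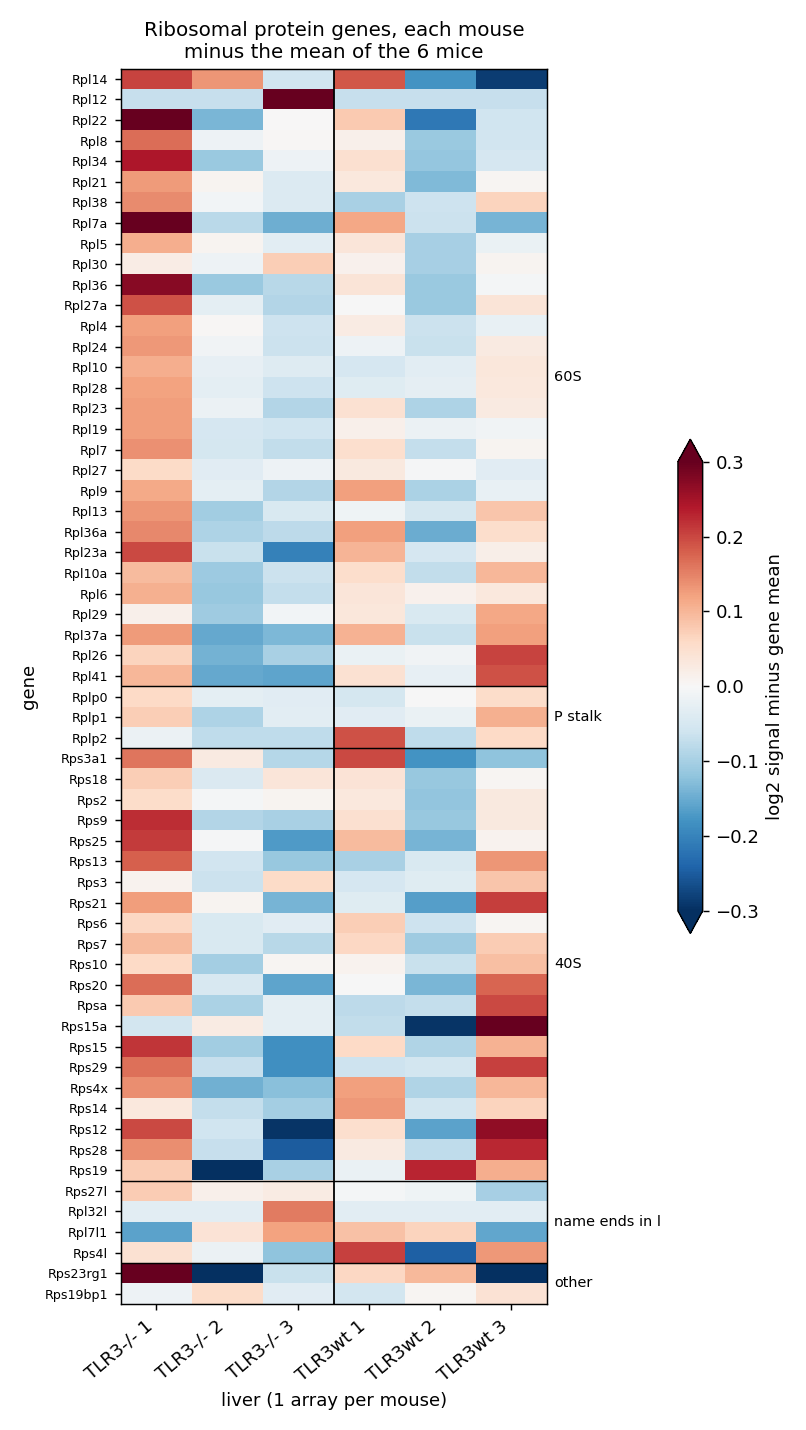
Log2 signal of each of the 60 genes in each liver minus that gene's mean over the 6 livers, with TLR3-/- mice in the left columns and genes grouped by class. The column of TLR3-/- mouse 1 is above the gene's mean in 54 of 60 genes and that of TLR3wt mouse 2 in 5.

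Exceptions to the order of the TLR3-/- mice were Rpl12, Rpl30, Rpl32l, Rpl7l1, Rps15a, Rps19bp1 and Rps3. These 7 include 2 of the probe sets near the floor and 3 of the 6 genes that are not standard subunits. Among the 54 standard subunits TLR3-/- mouse 1 was the highest TLR3-/- mouse in 50 (92.6%). The mean deviation of the 14 endothelial markers was 0.12, -0.11 and -0.06 in TLR3-/- mice 1 to 3, against -0.03, 0.16 and -0.07 in TLR3wt mice 1 to 3. That of the 17 hepatocyte markers lay between -0.07 and 0.09 and that of the 19 macrophage markers was -0.23, -0.65 and -0.15 against 0.13, 0.55 and 0.35. RNA quality values are not given in the sources used here, and their part in the differences between mice was not tested.

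Probe sets outside the 60 representatives gave like values. The 60 genes had 216 probe sets with 1 symbol above the floor, of which 0 were called (limma, smallest adjusted p 0.448) and 0 had an unadjusted p under 0.05, with a median difference of 0.0021. Of the 39 genes with over 1 such probe set, 10 had only higher, 13 only lower and 16 both higher and lower ones, and the differences within 1 gene spread over at most 0.11 (Rpl23). All 14 probe sets of Rps12 were lower (-0.10 to -0.015), and all 9 of Rpl27a and all 9 of Rpl36 were higher. Of the 216, 12 held values identical to those of another probe set of the same gene, so probe sets do not count as independent measurements.

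Probe sets that carry a ribosomal symbol together with other symbols were examined as a group. For 20 ribosomal symbols, Rpl3, Rpl11 and Rpl13a among them, the array had only such probe sets. The group held 236 probe sets above the floor with several symbols of which at least 1 was ribosomal. It also included probe sets that name members of the 60 genes, such as Rpl34 and Rpl30, so its values do not describe the 20 symbols alone. Of the 236, 0 were called and 0 had an unadjusted limma p under 0.05 (smallest adjusted p 0.433), and the median difference was 0.016. The groups were apart in 4 (1.69%), against 20.1% of all tested probe sets. The 4 carried the symbol Rpl34 (differences 0.15, 0.15 and 0.14) or Rpl30 (0.09). A further Rpl34 probe set had 0.19 with overlapping groups. The mean deviations of the 236 were 0.15, -0.05 and -0.09 in TLR3-/- mice 1 to 3 against 0.04, -0.09 and 0.03 in TLR3wt mice 1 to 3. They were highest in TLR3-/- mouse 1, as for the 60 genes, and lowest in TLR3-/- mouse 3 and TLR3wt mouse 2. Fau, which encodes a 40S protein fused to a ubiquitin-like protein and lies outside the naming rule, averaged 9.10 ± 0.12 in TLR3-/- and 9.10 ± 0.09 in TLR3wt livers (SD, n = 3 each, difference -0.0072), with TLR3-/- mouse 1 the highest of the 6.

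Genes that build or serve the ribosome were compared from fixed lists, and none passed in any of them by limma. Their medians lay above that of the cytosolic ribosomal proteins, and the background must be kept in view: of all 10347 genes with 1 symbol, 60.9% were higher in TLR3-/- livers, with a median difference of 0.033. Of 76 mitochondrial ribosomal protein genes, whose products translate the mitochondrial genome, 58 were higher and 18 lower (median 0.07, 0 called, 8 or 10.5% at an unadjusted p under 0.05, against 14.5% of all tested probe sets). Mrpl4 averaged 7.202 ± 0.03 in TLR3-/- and 7.01 ± 0.02 in TLR3wt livers (SD, n = 3 each, difference 0.19, limma adjusted p = 0.192), and Mrpl23 a difference of 0.21. The groups lay apart in both and in 18.4% of the list, against 20.1% of all tested probe sets.

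Of 69 ribosome assembly factors, nucleolar proteins and enzymes that process rRNA, 50 were higher and 19 lower (median 0.08, 0 called, 5 at an unadjusted p under 0.05). Utp14a, a factor of 40S assembly, had 6.22, 6.12 and 6.04 in TLR3-/- and 5.83, 5.67 and 5.75 in TLR3wt livers (difference 0.38, limma adjusted p = 0.138). Ddx52, an RNA helicase, had a difference of 0.26. The groups were apart in both genes and in 14.5% of the list, against 20.1% of all tested probe sets, and 7.25% of the list had an unadjusted p under 0.05, against 14.5%. Of 33 initiation factors 27 were higher (median 0.07, 0 called, 1 at an unadjusted p under 0.05), with Eif5 at 0.22 and Eif4a2 at 0.23.

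Some other translation genes also give TOP transcripts, Eef2 and Gas5 among them. These 2 are described because they had the smallest p of their lists (limma), so they do not stand for TOP transcripts in general. Of 10 elongation and termination factors 7 were higher and 3 lower (median 0.04, 0 called, 0 at an unadjusted p under 0.05). The groups were apart in 10% of them, against 20.1% of all tested probe sets. Eef1a1 (difference 0.0035), Tpt1 (0.06) and Eef1b2 (-0.08) had overlapping groups. Eef2, the translocase of the ribosome, had 10.94, 10.93 and 10.89 in TLR3-/- and 10.80, 10.80 and 10.84 in TLR3wt livers (difference 0.10, limma adjusted p = 0.392), and Eif5a a difference of 0.09. Gas5, a snoRNA host gene, had 9.59, 9.70 and 9.60 against 9.38, 9.43 and 9.19, a difference of 0.30 (limma adjusted p = 0.201). The groups were apart for Eef2 and Gas5, and TLR3-/- mouse 1 was not above both other TLR3-/- mice for Gas5. Snhg5, with a difference of 0.17, and Snhg17, with 0.028, were the other 2 of 3 measured host genes, of 11 listed. All 3 were higher (0 called, 1 at an unadjusted limma p under 0.05), while 60.9% of all genes with 1 symbol were higher. Of all tested probe sets 14.5% had an unadjusted limma p under 0.05.

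Among regulators of ribosome production 0 genes were called. Of 12 genes of RNA polymerase I and rDNA transcription 8 were higher (median 0.025, 0 called, 1 at an unadjusted p under 0.05). Taf1d, a subunit of the promoter selectivity factor, had 7.46, 7.45 and 7.57 in TLR3-/- and 7.99, 7.76 and 7.76 in TLR3wt livers (difference -0.34, limma adjusted p = 0.180), and Taf1a a difference of 0.25. Of 18 genes of the LARP1, mTORC1 and S6 kinase list 11 were higher (median 0.026, 0 called, 1 at an unadjusted p under 0.05), among them Rheb, the GTPase that activates mTORC1 (0.13), while Max, the partner of Myc, was at -0.23. In that list the groups were apart in 22.2%, against 20.1% of all tested probe sets. Of 12 genes of ribosome rescue 11 were higher (median 0.04, 0 called, 1 at an unadjusted p under 0.05), with Ankzf1 at 0.25 and Hbs1l at 0.09. The groups were apart in 16.7% of the rescue list and 8.33% of the RNA polymerase I list. For comparison, 60.9% of all genes with 1 symbol were higher, and 14.5% of all tested probe sets had an unadjusted limma p under 0.05.

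**Figure D5:**
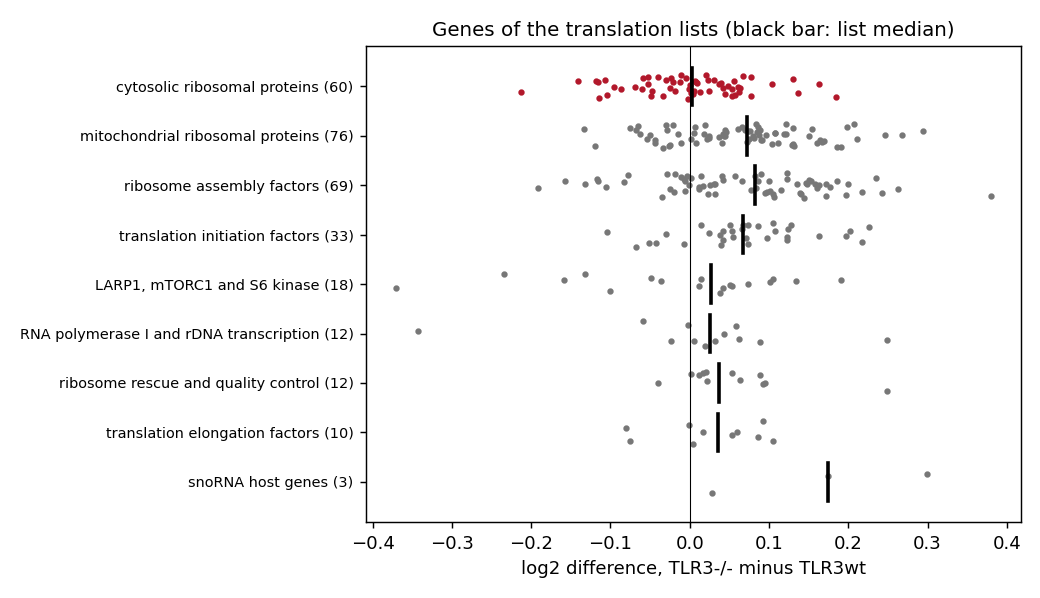
Log2 difference, TLR3-/- minus TLR3wt, of each measured gene (dots) in the cytosolic ribosomal proteins (red) and 8 other translation lists (grey), with the number of genes in brackets and a black bar at each list's median. The median of the cytosolic ribosomal proteins is at 0.0028, and those of the other lists lie between 0.025 and 0.17.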

How the data were processed

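The authors deposited log2 signals. The submitters' processing notes name RMA and Affymetrix Expression Console. Versions and the genome build are not given in the sources used here. A floor of 5 held 57.2% to 57.6% of each array's values. Sample titles gave the groups. Columns of other samples numbered 0. Gene symbols came from the platform annotation. RefSeq tables (GRCm38.p6) served for names, promoters and start sites.

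The test of TLR3-/- against TLR3wt used limma 3.58.1 under R 4.3.3 (lmFit, eBayes, default settings, group as the only term, two-sided, Benjamini-Hochberg over all tested probe sets, threshold 0.05). It ran on 16639 probe sets, after removal of 18918 that never exceeded the floor. The members, lists and this filter were chosen with earlier results of these data known, so lists are described by counts and medians. Named genes were those with the largest differences of each sign (8 each), the smallest p (6), the highest and lowest means (3 each), the stalk genes, some well-studied members, pairs of like names, and the leading genes of each list. No gene's signal was set against another's, since probes differ in brightness. The array number limits the precision.

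The fit was tested on simulated data before use. It recovered 52.2% of simulated log2 changes of 0.5, 86.6% of changes of 1 and 98.5% of changes of 2. Of its 170 calls there, 12 were false. The simulation drew independent normal noise and placed changes only in probe sets well above the floor. In the real livers a difference of -1.08 (Marco, a macrophage marker) was not called (limma adjusted p = 0.138). The recovered shares therefore do not give the power of the real comparison. Replicate numbers did not pair the mice. Alternatives covered filters, scaling, variance models, probe set choice and leaving out each mouse.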

Additional observations from a re-analysis of the deposited data

How the results depend on the processing

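Of the 60 genes, 0 were called under each of 18 alternatives, which used moderated limma tests except for the ordinary pooled-variance test. The count at an unadjusted p under 0.05 was 0 except without TLR3-/- mouse 1 (2) and without TLR3wt mouse 1 (1). Over the alternatives that leave out 1 mouse, the median difference ran from -0.060 to 0.034, the number of higher genes from 14 to 42, and the number of genes with groups apart from 1 to 12. The number of higher genes was 21 after repeated quantile normalisation and 20 after centring, and 0 groups were apart after centring or among the standard subunits alone, an alternative chosen after seeing the data. The number of all tested probe sets called, 31, became 0 with probe sets at the floor included (2018 at an unadjusted p under 0.05), 18 with only those above the floor on all arrays, 21 in the brighter part, 9 after quantile normalisation, 14 after centring, 36 with an intensity trend, 2 by the ordinary test, 35 with array weights, 1 with only probe sets of 1 symbol, 3 with identical probe sets entered once, and 0 to 13 without 1 mouse. The replicate numbers did not pair the mice (correlations of same-numbered deviations 0.048, -0.012 and -0.063). With the replicate number as a block, 4 of all tested probe sets were called, 0 of the 60 genes were called, and their median difference stayed at 0.0028. Over all 60 genes the sign of the difference turned in 12 after centring, 11 after quantile normalisation, 5 with array weights and 4 with the mean of a gene's probe sets. Among the 40 named genes it turned after centring for Rpl10 -0.00028, Rpl23 -0.018, Rpl27 -0.026, Rpl7 -0.023, Rpl7l1 -0.031 and Rps3 -0.030, after quantile normalisation for Rpl23 -0.024, Rpl27 -0.029, Rpl7 -0.020, Rpl7l1 -0.034 and Rps3 -0.024, with array weights Rpl27 -0.0019, Rpl7l1 -0.0081 and Rps15a 0.047, and with the mean of a gene's probe sets Rpl27 -0.0036 and Rps6 0.018. Without 1 mouse, the sign turned in at least 1 setting for 40 of the 60 genes and for 24 of the 40 named genes, with differences of Rpl10 -0.015 to 0.058, Rpl22 -0.0031 to 0.23, Rpl23 -0.046 to 0.061, Rpl23a -0.16 to 0.043, Rpl27 -0.022 to 0.024, Rpl27a -0.034 to 0.11, Rpl34 -0.025 to 0.15, Rpl36 -0.070 to 0.12, Rpl36a -0.10 to 0.039, Rpl7 -0.058 to 0.047, Rpl7a -0.084 to 0.15, Rpl7l1 -0.077 to 0.082, Rplp0 -0.032 to 0.026, Rplp1 -0.079 to 0.011, Rps12 -0.23 to 0.017, Rps15 -0.17 to 0.031, Rps15a -0.20 to 0.16, Rps2 -0.010 to 0.064, Rps23rg1 -0.18 to 0.43, Rps3 -0.026 to 0.044, Rps3a1 -0.0056 to 0.18, Rps4l -0.20 to 0.027, Rps6 -0.047 to 0.022, Rpsa -0.077 to 0.061. The cause was not tested. The number of arrays and the floor limit what could be detected.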
